A study of Mus musculus with 12 samples.

Results

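Interleukin 6 (Il6), interleukin 10 (Il10), 3 further cytokines and 5 receptor chains that sense such cytokines were followed in bone marrow-derived macrophages (BMDM) before and after lipopolysaccharide (LPS). The 10 genes were chosen by symbol among the 43280 genes of the deposited expression table, with earlier results of these data known. They are the cytokines Il6, Il10, Lif, Osm and Il15 and the receptor chains Il10ra, Il4ra, Il7r, Il13ra1 and Il6st. Of these, 9 passed the filter of at least 1 CPM, the read count normalised to library size, in at least 2 libraries, as did 12086 genes in all, and Lif stayed under it. BMDM were grown from marrow of wild type (wt) and Treml4-/- mice of the C57BL6 background in medium with the growth factor M-CSF, which turns marrow precursors into macrophages. After 6 days they received vehicle (PBS, the unstimulated state M0) or 100 ng/ml LPS for 8 h (M1-8 h) or 12 h (M1-12 h). Each of the 6 groups had 2 biological replicates, which gave 12 poly(A)-selected RNA-seq libraries. Age and sex of the animals are not in the labels, nor is it said there which cultures at different times came from the same mouse.

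All of these proteins act through paired receptor chains and the JAK kinases and STAT transcription factors bound to them. IL-6, LIF and oncostatin M share the signalling chain gp130, encoded by Il6st, and chiefly activate STAT3. IL-10 also uses STAT3, through a receptor whose specific chain is encoded by Il10ra, and is known for restraining inflammatory cytokine output of macrophages. IL-4 and IL-13 act through the chain encoded by Il4ra, alone with the common gamma chain or together with Il13ra1, and activate STAT6, whereas IL-7 and IL-15 belong to the cytokines that use the common gamma chain.

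LPS changed all 9 tested genes at 8 h, the change of Il7r depending on the scaling of the libraries. With both genotypes averaged, 7 rose and 2 fell at 8 h, and 7 rose and 1 fell at 12 h. Il6 passed the filter only through its LPS libraries, a selection that favours a higher value after LPS. None was called between wt and Treml4-/- cells at any time. Calls came from limma on log2(CPM + 1), a scale that understates changes of weakly expressed genes, with a Benjamini-Hochberg adjusted p under 0.05 over all 12086 genes and a fold change of at least 1.4. Among all genes tested, 17.1% were called higher and 59.8% lower at 8 h, and 16.3% higher and 60.3% lower at 12 h. The median of the 9 log2 fold changes was 2.40 at 8 h and 2.47 at 12 h, beside medians of -0.72 and -0.76 over all genes tested. Because the genes were chosen with earlier results of these data known, their contrast with all genes is a description. The replicates are separate cultures by their labels, and p-values rest on the spread shared over the 6 groups because each group holds 2 libraries.

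The negative median of all genes depended on how libraries were scaled. CPM divide by the library total, and the 100 most abundant genes took 27.9% to 30.4% of the reads at M0, 32.4% to 33.5% at M1-8 h and 36.1% to 37.3% at M1-12 h. Scaling by the median of ratios between libraries raised the LPS fold changes of the 9 tested genes, and the median of all genes by 0.69 at 8 h and 0.72 at 12 h. The share of higher genes among those called then went from 22.3% to 49.8% at 8 h and from 21.2% to 50.0% at 12 h. Changes of the 10 genes are therefore also given relative to the median gene where their direction is near it.

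The libraries held 48008751 to 58500792 counted reads, so that 1 read was worth 0.0171 to 0.0208 CPM. Treml4 had no read in the 6 Treml4-/- libraries and 3.95 to 13.2 CPM in the 6 wt libraries. The 7 macrophage markers include Csf1r, the receptor for M-CSF. At M0 they summed to 22962.1 to 27537.0 CPM in wt and 20467.6 to 20694.4 CPM in Treml4-/- libraries. At M1-8 h they summed to 11453.7 to 12894.9 and 9950.6 to 10570.2 CPM, again without overlap. At M1-12 h the sums were 10019.8 to 10592.5 and 9711.7 to 10070.2 CPM, which overlapped. The 4 markers of the LPS response, among them Tnf and Nos2, summed to 83.7 to 113.5 CPM at M0 and 25173.1 to 28910.9 CPM after LPS. Markers of B cells, NK cells, mast cells and erythroid cells summed to at most 0.826 CPM in any library. Those of stromal cells summed to at most 1.25 CPM. Those of dendritic cells summed to 0.57 to 0.876 CPM at M0 and 2.53 to 7.69 CPM after LPS. Of the dendritic cell markers, Xcr1 reached 7.19 CPM, while Flt3, Zbtb46 and Siglech stayed at 0.713 CPM or less in every library. The T cell markers summed to 0.774 to 5.3 CPM, nearly all of it Cd4, with Cd3e at 0.0193 CPM or less. The 5 markers of neutrophils and their precursors summed to 31.2 to 81.9 CPM in wt and 85.7 to 99.1 CPM in Treml4-/- libraries at M0, and to 53.5 to 57 and 67.4 to 87.5 CPM at M1-8 h. At M1-12 h they summed to 40.4 to 50.8 CPM in wt and 47.6 to 59.9 CPM in Treml4-/- libraries, which overlapped. The part of the macrophage and neutrophil marker differences in the genotype differences given further on was not tested. In such bulk libraries, more RNA per cell and a larger share of expressing cells cannot be told apart.

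**Figure D1:**
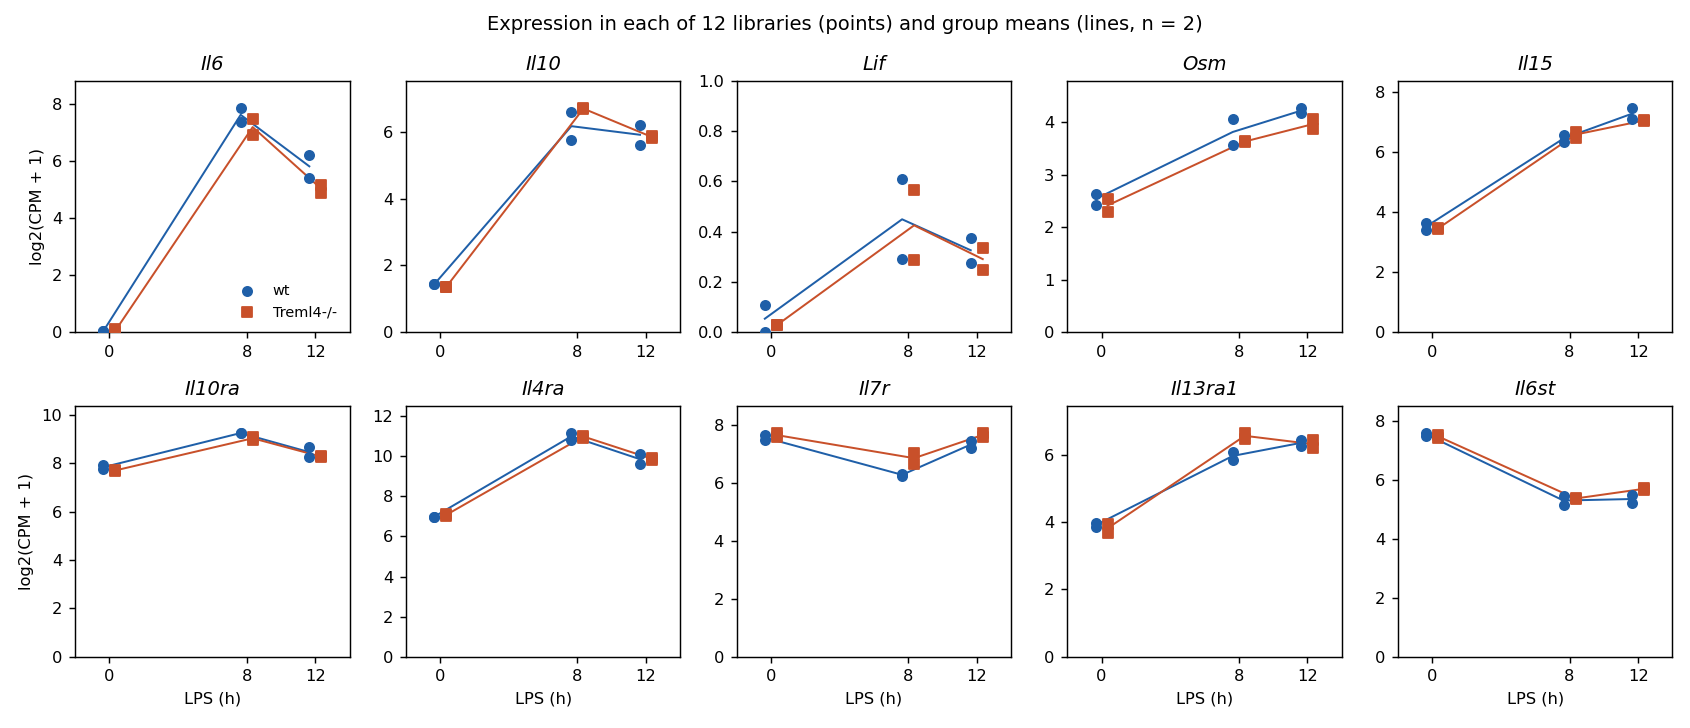
Expression of the 10 genes as log2(CPM + 1) on the y axis against hours of LPS on the x axis, with 1 point per library (wt circles, Treml4-/- squares, n = 2 per genotype and time) and lines through the group means. The y axes start at 0 and differ between genes, and Il6 starts near 0 at 0 h while Il6st and Il7r start high and lie lower at 8 h.

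Il6, on chromosome 5 from 30013114 to 30019981 of GRCm38, encodes a cytokine that drives fever and the acute-phase response and was close to absent before LPS. It had 1 and 2 reads in the wt replicates at M0 and 4 and 0 reads in the Treml4-/- replicates. At M1-8 h it reached 164.4 and 230.0 CPM in wt and 119.1 and 174.3 CPM in Treml4-/- cells, and at M1-12 h it was at 41.5 and 72.8 CPM and at 34.3 and 28.7 CPM. Every LPS library was thus above every M0 library, and every 8 h library above every 12 h library. The log2 fold change was 7.35 (SE 0.18, adjusted p = 1.02e-11) at 8 h and 5.36 at 12 h (adjusted p = 1.275e-10). These sizes depend on the 1 added to CPM, and on the log2 CPM as deposited the one at 8 h was 12.67. Il6 passed the filter only through its LPS libraries, so that these values are a description. Because so few reads stood at M0, the ratio of CPM is known only roughly. In wt cells it was 6797.2 at 8 h with a 95% interval of 2325.6 to 32963.2, and in Treml4-/- cells 3737.2 with an interval of 1459.3 to 13717.7. These intervals cover counting error only. From 8 h to 12 h Il6 fell, with log2 fold change -1.98 ± 0.18 (SE, adjusted p = 3.91e-06).

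Il10, on chromosome 1 from 131019845 to 131024974, encodes the inhibitory counterpart among these cytokines and was low but measurable at M0. Its level was 1.7 and 1.69 CPM in the wt replicates and 1.57 and 1.53 CPM in the Treml4-/- replicates. At M1-8 h it was at 95.6 and 53 CPM in wt and at 104.5 and 101.7 CPM in Treml4-/- cells, and at M1-12 h at 73.1 and 48.2 CPM and at 57.5 and 55.7 CPM. The LPS libraries were all far above M0, and the wt replicates differed more from each other than the Treml4-/- replicates did. The log2 fold change was 5.05 (SE 0.17, adjusted p = 1.08e-10) at 8 h and 4.49 at 12 h. Il10 was lower at 12 h than at 8 h by a log2 fold change of -0.56 (adjusted p = 0.0135), a call that was lost without wt replicate 1 at M1-8 h (-0.35, adjusted p = 0.0387) and without wt replicate 2 at M1-12 h (-0.41, adjusted p = 0.059).

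Osm and Lif encode oncostatin M and leukemia inhibitory factor, which like IL-6 signal through gp130. They are neighbours on chromosome 11 of GRCm38, Osm from 4236420 to 4241026 and Lif from 4257557 to 4272514, both on the plus strand. Osm was at 5.23 and 4.39 CPM in wt and 4.77 and 3.91 CPM in Treml4-/- cells at M0. After 8 h of LPS it was at 15.7 and 10.8 CPM in wt and 11.3 and 11.4 CPM in Treml4-/- cells, and after 12 h at 18.3 and 17 CPM and at 13.6 and 15.6 CPM. No LPS library overlapped with M0. Osm rose at 8 h with log2 fold change 1.25 ± 0.12 (SE, adjusted p = 8.54e-07) and at 12 h with 1.62, and its increase from 8 h to 12 h of 0.37 was under the fold threshold. Lif was at 0.525 CPM or less in every library. Summed over replicates it had 4 reads in wt and 2 in Treml4-/- cells at M0, which became 38 and 40 after 8 h of LPS and 26 and 24 after 12 h. The ratio of CPM from M0 to M1-8 h was 9.43 in wt (95% interval 3.4 to 36.4) and 18.1 in Treml4-/- cells (4.7 to 154.8), counting error only. Without the filter, the log2 fold change of Lif on the log2(CPM + 1) scale was 0.40 at 8 h and 0.27 at 12 h. The adjusted p by limma was 0.001958 and 0.01642, and neither was called because both changes were under the fold threshold.

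Il15 encodes a cytokine that sustains NK cells and memory CD8 T cells and is presented to them by macrophages and dendritic cells, and lies on chromosome 8 from 82331632 to 82403222. At M0 it was at 11.4 and 9.56 CPM in wt and 9.88 and 9.99 CPM in Treml4-/- cells. It reached 78.3 and 93.8 CPM and 87.6 and 100.9 CPM at M1-8 h. At M1-12 h it stood at 133.9 and 174.6 CPM and at 132.4 and 128.5 CPM. Group means of Il15 and Osm were thus highest at 12 h and those of Il6 and Il10 at 8 h, in both genotypes. The log2 fold change of Il15 was 3.02 (SE 0.10, adjusted p = 9.80e-11) at 8 h and 3.67 at 12 h, and it rose by 0.65 between them (adjusted p = 0.0001815).

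The promoters of these genes were read for motifs of factors that LPS and these cytokines are known to engage. RefSeq sequences on GRCm38.p6 of the 250 bases before the RefSeq start were at hand for 6 of the 10 genes (Il6, Lif, Il4ra, Il7r, Il13ra1 and Il6st). This start can differ from that of GENCODE, the source of the gene positions given here. The Il7r window lies wholly inside the GENCODE span of Il7r, and the windows of Il4ra and Lif reach into theirs. Il6 and Lif are shown as cytokine genes whose windows held NF-kB and AP-1 motifs, and Il7r and Il6st as receptor genes whose levels were lower at 8 h. Capitals mark motif matches on either strand, and the strand of each sequence is that of its gene.
Il6 promoter, GRCm38.p6 chr5:30012864-30013113, plus strand: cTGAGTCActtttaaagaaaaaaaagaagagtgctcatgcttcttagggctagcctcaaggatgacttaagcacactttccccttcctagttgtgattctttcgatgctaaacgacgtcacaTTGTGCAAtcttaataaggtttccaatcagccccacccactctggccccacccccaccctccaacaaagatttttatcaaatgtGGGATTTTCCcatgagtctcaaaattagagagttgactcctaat
Lif promoter, GRCm38.p6 chr11:4257318-4257567, plus strand: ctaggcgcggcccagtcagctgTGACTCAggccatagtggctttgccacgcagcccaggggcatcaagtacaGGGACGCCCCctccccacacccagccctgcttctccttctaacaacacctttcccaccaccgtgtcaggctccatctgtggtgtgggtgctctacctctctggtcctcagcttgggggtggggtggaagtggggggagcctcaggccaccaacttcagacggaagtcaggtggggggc
Il7r promoter, GRCm38.p6 chr15:9529877-9530126, minus strand: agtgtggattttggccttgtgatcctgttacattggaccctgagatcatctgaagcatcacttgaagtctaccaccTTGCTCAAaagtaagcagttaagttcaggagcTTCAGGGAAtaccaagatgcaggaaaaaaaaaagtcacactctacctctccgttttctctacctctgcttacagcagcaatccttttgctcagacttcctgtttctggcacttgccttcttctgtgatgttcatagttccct
Il6st promoter, GRCm38.p6 chr13:112463820-112464069, plus strand: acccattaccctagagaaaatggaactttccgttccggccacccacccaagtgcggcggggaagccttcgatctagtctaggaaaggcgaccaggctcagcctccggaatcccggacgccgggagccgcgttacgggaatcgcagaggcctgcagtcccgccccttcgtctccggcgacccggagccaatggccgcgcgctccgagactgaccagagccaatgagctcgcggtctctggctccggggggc
An NF-kB motif (GGG, 3 bases of any kind, T, any base, CC) matched in 2 of the 6 windows, as GGGATTTTCC from 44 to 35 bases before the start of Il6 and on the opposite strand from 178 to 169 bases before that of Lif. They were in 14.9% of the 32851 promoters of the same length. The AP-1 letters TGANTCA were in the same 2 windows, as TGAGTCA in Il6 and TGACTCA in Lif, and in 6.7% of all promoters. The C/EBP letters TTGCNNAA were found in Il6 and Il7r and in 9.6% of all promoters. The STAT motif known as GAS, with letters TTCNNNGAA, was found in Il7r alone of the 6 and in 7.0% of all promoters. In Il7r it lay from 142 to 134 bases before the RefSeq start. The cyclic AMP element TGACGTCA (1.5% of all promoters), the interferon element ISRE (GAAA, 2 bases of any kind, GAAA, 3.0%) and TATAAA (12.4%) had no match in the 6 windows. All motifs were searched on both strands with exact letters, N standing for any base, and a match is a description of letters only.

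Il4ra, the chain that binds IL-4 and serves both IL-4 and IL-13 signalling, had the largest LPS response of the 5 receptor genes chosen. It had 124.7 and 126.8 CPM in wt and 139.8 and 127.8 CPM in Treml4-/- cells at M0. At M1-8 h the values were 2324.2 and 1797.5 CPM and 2100.5 and 1958.8 CPM. At M1-12 h they were 1093.9 and 781.0 CPM and 904.2 and 968.9 CPM. The time points did not overlap, and the genotypes overlapped at each LPS time. The log2 fold change was 3.96 (SE 0.11, adjusted p = 2.46e-11) at 8 h and 2.83 at 12 h, and Il4ra fell by 1.13 on the log2 scale from 8 h to 12 h (adjusted p = 6.02e-06). In the GENCODE M21 annotation, 571 exon bases of Il4ra, on chromosome 7 from 125552120 to 125579474, overlap the antisense gene Gm44876. The libraries were stranded, and whether the counting used strand is not given in the sources used here.

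Il13ra1 pairs with the Il4ra chain in the receptor that also takes IL-13, and its gene lies on chromosome X from 36112110 to 36171259. Its level was 14.6 and 13.4 CPM in wt and 11.9 and 14.4 CPM in Treml4-/- cells at M0. It was at 56.2 and 67.4 CPM and at 87.5 and 100.1 CPM at M1-8 h, and at 86.1 and 76.1 CPM and 85.4 and 72.2 CPM at M1-12 h. LPS libraries and M0 did not overlap, and at M1-8 h both Treml4-/- libraries were above both wt libraries. The log2 fold change under LPS was 2.40 (SE 0.09, adjusted p = 4.41e-10) at 8 h and 2.47 at 12 h, with a difference of 0.07 between them (adjusted p = 0.545, 95% interval -0.14 to 0.28).

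Il10ra (chromosome 9, 45253837 to 45269149), the chain that gives the IL-10 receptor its specificity, rose at both times and was lower at 12 h than at 8 h. It was at 212.2 and 241.8 CPM in wt and 205.4 and 207.7 CPM in Treml4-/- cells at M0. At M1-8 h it reached 596.4 and 612.1 CPM and 546.9 and 494.4 CPM, and at M1-12 h it was at 302.8 and 402.9 CPM and at 302.7 and 310.9 CPM. The 3 time points did not overlap. The log2 fold change was 1.37 (SE 0.09, adjusted p = 2.38e-08) at 8 h and 0.60 (adjusted p = 4.01e-05) at 12 h, and the change from 8 h to 12 h was -0.77 (adjusted p = 1.88e-05).

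Il6st (chromosome 13, 112464070 to 112510086), which encodes gp130, fell while the ligands Il6 and Osm rose. It had 193.7 and 177.8 CPM in wt and 171.5 and 182.3 CPM in Treml4-/- cells at M0. At M1-8 h it was at 34.5 and 42.7 CPM and at 41.1 and 39.6 CPM, and at M1-12 h at 43.9 and 36.2 CPM and at 52.3 and 49.6 CPM. LPS and M0 libraries did not overlap. Il6st fell, with log2 fold change -2.17 ± 0.08 (SE, adjusted p = 3.645e-10) at 8 h and -1.98 at 12 h (adjusted p = 7.52e-10). With median of ratios scaling the log2 fold changes were -1.38 and -1.14, and both stayed called.

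Il7r encodes the receptor chain for IL-7 and for TSLP and is best known from lymphocytes. The gene lies on chromosome 15 from 9505788 to 9530176. Its level was 176.2 and 201.7 CPM in wt and 191.0 and 209.6 CPM in Treml4-/- cells at M0. At M1-8 h it was at 74.7 and 78.9 CPM and at 100.7 and 130.9 CPM, and at M1-12 h at 172.6 and 147.1 CPM and at 212.6 and 190.1 CPM. The 8 h libraries lay under all others, and the 12 h libraries overlapped with M0. Il7r was lower at 8 h with log2 fold change -1.04 ± 0.09 (SE, adjusted p = 5.60e-07), which is -0.32 relative to the median of all genes, and median of ratios scaling gave -0.25 and no call. At 12 h its log2 fold change was -0.12 (adjusted p = 0.249), which is 0.64 above the median of all genes, and the direction turned to a called 0.73 with median of ratios scaling. The rise from 8 h to 12 h of 0.92 (SE 0.09, adjusted p = 8.87e-06) was 0.97 with that scaling. Of the T cell markers in the same libraries, Cd3e was at 0.0193 CPM or less and Cd4 at 0.715 to 5.24 CPM. The 6 T cell markers summed to 3.82 to 5.3 CPM at M0 and 0.774 to 1.46 CPM after LPS. A part of T cells in the level of Il7r was not tested.

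**Figure D2:**
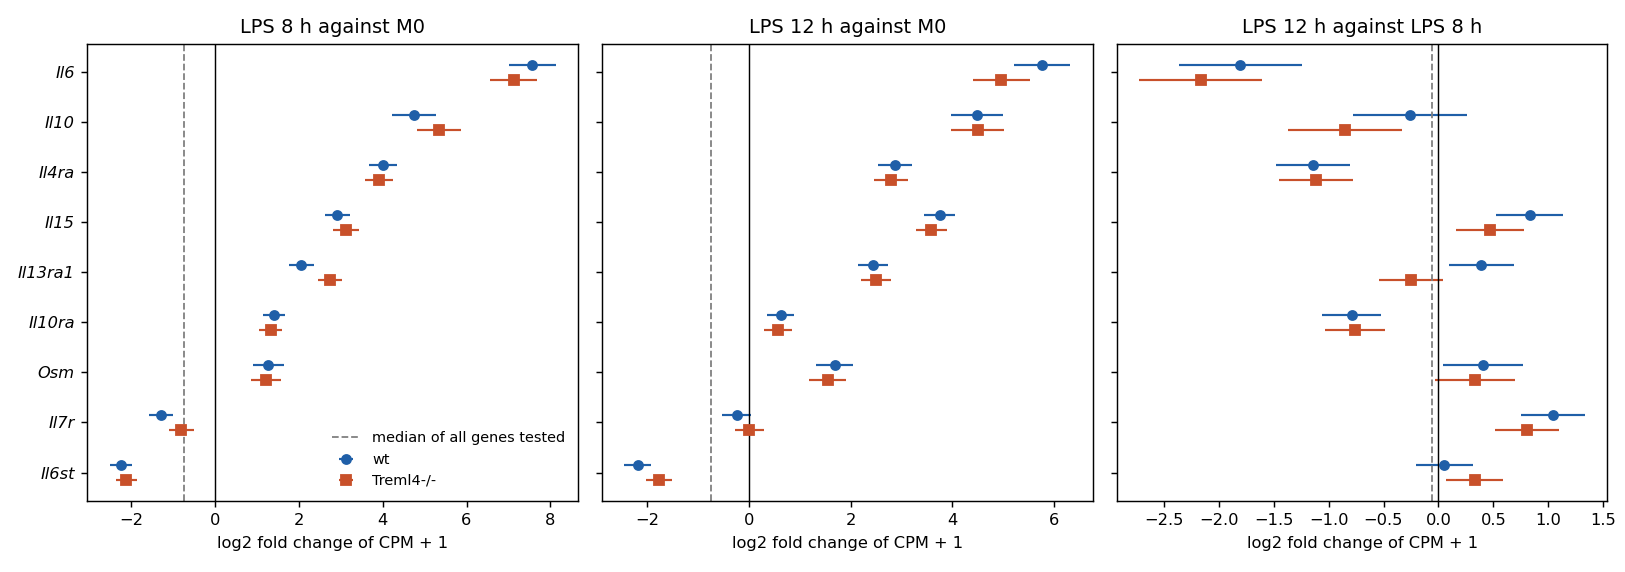
Log2 fold changes of CPM + 1 under LPS on the x axis for the 9 tested genes in rows, separately for wt (circles) and Treml4-/- cells (squares), with 95% intervals from limma (n = 2 per group). The dashed line is the median of all 12086 genes, -0.72 at 8 h and -0.76 at 12 h, and Il6st and Il7r are the rows at or left of it at 8 h.

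From 8 h to 12 h, 2 of the 9 genes were called higher (Il15 and Il7r) and 4 lower (Il6, Il10, Il10ra and Il4ra), beside 13.5% and 18.7% of all genes tested. Osm, Il13ra1 and Il6st had log2 fold changes of 0.37, 0.07 and 0.19 and were not called. Within each genotype the LPS calls at 8 h and at 12 h were for the same genes and directions as in the average, with the smallest called change for Il10ra at 12 h (0.62 in wt and 0.57 in Treml4-/- cells). From 8 h to 12 h, Il10 had log2 fold changes of -0.26 in wt (adjusted p = 0.397) and -0.85 in Treml4-/- cells (adjusted p = 0.012). Il15 had 0.83 in wt (adjusted p = 0.0006554) and 0.47 in Treml4-/- cells, the latter with an adjusted p of 0.01737 but under the fold threshold. Il13ra1 had 0.39 in wt and -0.25 in Treml4-/- cells, neither called. Whether the change from 8 h to 12 h differed between genotypes was not tested.

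Per kilobase of merged exons, the order of the levels changed with LPS. At M0 the receptors Il10ra (62 ± 4.84 CPM per kb, SD, n = 4 libraries of both genotypes), Il7r (41.7 ± 3.1), Il4ra (21.6 ± 1.14) and Il6st (16.3 ± 0.845) stood above all cytokines, of which Il15 (4.51 ± 0.352) was highest. Neighbours in this order did not overlap, except Il6 and Lif at its end. At M1-8 h Il4ra was highest at 340.8 ± 37.2 CPM per kb, above Il10ra at 160.8 ± 15.2. Il6 (70.8 ± 18.8), Il10 (67.7 ± 18.4) and Il15 (39.9 ± 4.24) followed, with overlapping ranges between neighbours. In Treml4-/- cells Il10 was at 78.7 and Il6 at 60.4 CPM per kb at this time, and their ranges did not overlap. In wt cells Il6 was at 81.2 and Il10 at 56.7 CPM per kb, with overlapping ranges and an order that differed between replicates. Replicate 1 had Il10 at 73 and Il6 at 67.7 CPM per kb, as in the order of Treml4-/- cells. Replicate 2 had Il6 at 94.7 and Il10 at 40.5 CPM per kb. At M1-12 h Il15 came after Il4ra and Il10ra, at 63 ± 9.55 CPM per kb, above Il10 at 44.8 ± 7.97, and Il6 had 18.3 ± 8.11. Il6st was last but Lif at both LPS times, at 3.56 ± 0.322 and 4.1 ± 0.643 CPM per kb.

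The genotype comparison asked whether loss of Treml4, a receptor of the TREM family on myeloid cells, altered these genes. At M0 none of the 9 was called and none had an unadjusted p under 0.05 by limma, beside 0.0993% of all genes called and 3.35% with such a p. The wt minus Treml4-/- log2 fold changes at M0 lay between -0.09 and 0.13. Il6 at M0 rests on 3 reads in wt and 4 in Treml4-/- cells and allows no fold between genotypes. At M1-8 h none was called, beside 0.0910% of all genes, and 3 had an unadjusted p under 0.05, beside 21.0% of all genes. At M1-12 h none was called, beside 0.132%, and 3 had an unadjusted p under 0.05, beside 7.55%. With voom on the recovered reads none of the 9 was called at any of the 3 times either. Among all genes called at M1-8 h, 36.4% were higher in wt, and 60.0% with median of ratios scaling, and at M1-12 h the shares were 37.5% and 60.0%.

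The 3 genes with an unadjusted p under 0.05 at M1-8 h were Il10, Il7r and Il13ra1, each lower in both wt libraries than in both Treml4-/- libraries. Il10 differed by a log2 fold change of -0.53 (95% interval -1.05 to -0.01, adjusted p = 0.233), with means of 74.3 ± 30.1 CPM in wt and 103.1 ± 2 CPM in Treml4-/- cells (SD, n = 2 each). Without wt replicate 2, the log2 fold change of Il10 was -0.11. Il7r differed by -0.57 (-0.87 to -0.28, adjusted p = 0.1245), with means of 76.8 ± 2.92 and 115.8 ± 21.3 CPM. Il13ra1 differed by -0.60 (-0.89 to -0.30, adjusted p = 0.124), with means of 61.8 ± 7.93 and 93.8 ± 8.93 CPM. Both were called without Treml4-/- replicate 1 at M1-8 h, Il7r at -0.76 (adjusted p = 0.0211) and Il13ra1 at -0.69 (adjusted p = 0.0414), where 598 genes were called in place of 11. Il13ra1 lies on the X chromosome, and the Y-linked genes Ddx3y, Eif2s3y, Kdm5d and Uty had at least 305 reads in each of the 12 libraries, with Xist at 41 reads or less.

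At M1-12 h, Il6, Il7r and Il6st had an unadjusted p under 0.05, and their genotypes did not overlap. Il6 was at 57.1 ± 22.1 CPM in wt and 31.5 ± 4.01 CPM in Treml4-/- cells (SD, n = 2 each), a log2 fold change of 0.79 (95% interval 0.23 to 1.35, adjusted p = 0.423). It was at 197.2 ± 46.4 and 146.7 ± 39.1 CPM at M1-8 h, where the libraries overlapped and the log2 fold change was 0.43 (-0.13 to 0.99, adjusted p = 0.341). Without wt replicate 2 at M1-12 h, the difference of Il6 there was 0.39. At M1-8 h it was 0.16 without Treml4-/- replicate 1 and 0.19 without wt replicate 2. Il7r differed by -0.33 (adjusted p = 0.596) and Il6st by -0.35 (adjusted p = 0.477), lower in wt. Without wt replicate 2 at M1-12 h these were -0.22 and -0.21. For Il4ra the difference was 0.01 at 8 h (-0.33 to 0.35) and -0.02 at 12 h (-0.36 to 0.32), intervals that lie within a fold of 1.4 in either direction.

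**Figure D3:**
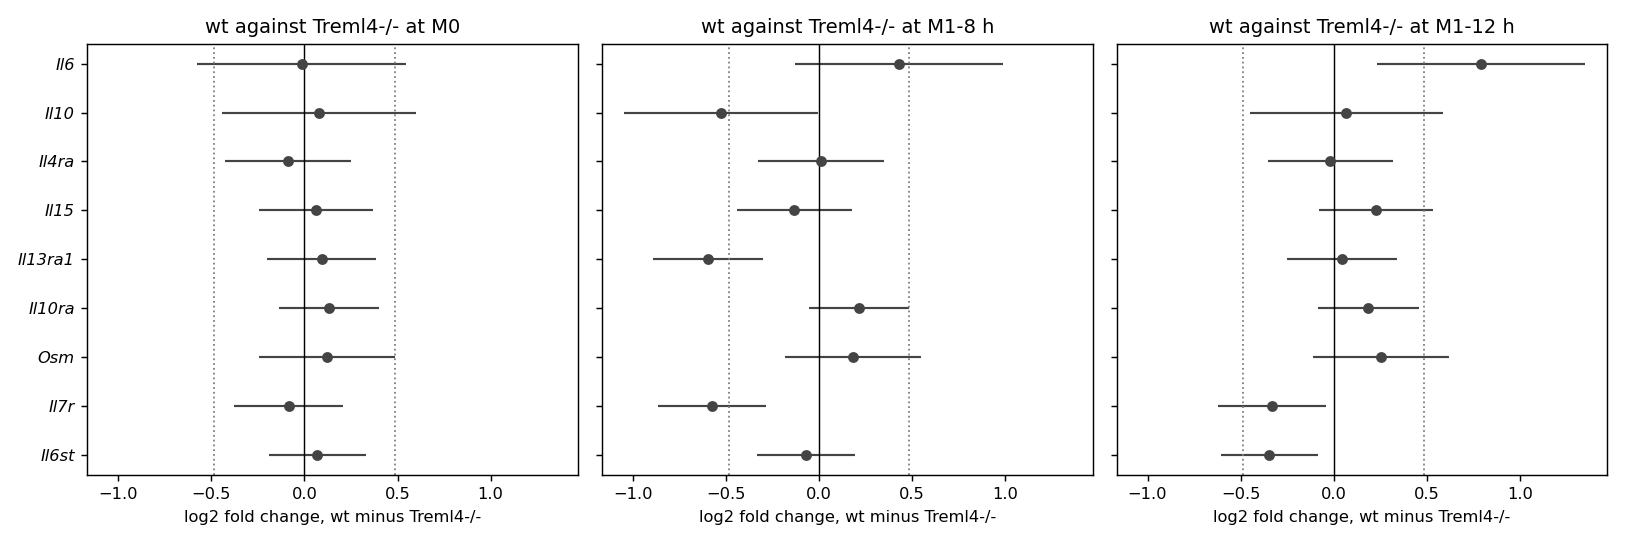
Differences between genotypes as log2 fold change, wt minus Treml4-/-, on the x axis for the 9 tested genes in rows, 1 panel per time, drawn with 95% intervals from limma (n = 2 per group). Dotted lines mark a fold of 1.4, and the points farthest from 0 are Il13ra1 (-0.60), Il7r (-0.57) and Il10 (-0.53) at M1-8 h and Il6 (0.79) at M1-12 h.

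The response to LPS itself was compared between genotypes as an interaction. None of the 9 genes was called at 8 h or at 12 h, where 0.00827% of all genes were called at each time. An unadjusted p under 0.05 was found for 2 genes at 8 h, beside 6.67% of all genes, and for 2 at 12 h, beside 3.82%. At 8 h these were Il13ra1, whose log2 fold change was 2.06 in wt and 2.75 in Treml4-/- cells (difference -0.69, 95% interval -1.11 to -0.27, adjusted p = 0.729), and Il7r (difference -0.49, -0.90 to -0.08, adjusted p = 0.729). At 12 h they were Il6, with 5.77 in wt and 4.96 in Treml4-/- cells (difference 0.81, 0.01 to 1.60, adjusted p = 0.9995), and Il6st (difference -0.42, -0.79 to -0.05, adjusted p = 0.9995). The Il6 interactions rest on 3 reads in wt and 4 in Treml4-/- cells at M0. The one at 12 h was 0.12 on the deposited log2 CPM and 0.41 without wt replicate 2 at M1-12 h, and the one at 8 h, 0.45 on log2(CPM + 1), turned to -0.25 on the deposited log2 CPM. The genotype comparisons at a given time and the interactions share libraries and are not separate evidence.

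Partner genes of the same pathways were counted from lists put together with earlier results of these data known. Their counts stand beside 17.1% of all genes called higher and 59.8% lower at 8 h, and 16.3% higher and 60.3% lower at 12 h. Il27, Il19, Il2ra, Stat4, Socs1, Cish, Arg1, Ccl24 and Pdcd1lg2 were under 1 CPM in every M0 library and passed the filter only through LPS libraries, a selection that favours higher values after LPS, so that the counts of higher genes that hold them are a description. Of the other gp130 ligands, 2 of 6 passed it. Il27, the subunit of interleukin 27 that pairs with Ebi3, was at 0.652 CPM in wt and 0.629 CPM in Treml4-/- cells at M0 and had a log2 fold change of 9.04 at 8 h and 6.84 at 12 h, and Ebi3 one of 1.33 and 1.23. Of the other gp130-family receptors, 4 of 7 passed the filter. All 4 were called lower at both times, beside 59.8% and 60.3% of all genes. Lifr and Il27ra had group means above 1 CPM only at M0. Passing the filter at M0 favours lower values after LPS, so that this count too is a description. With median of ratios scaling 2 of the 4 were called lower at each time. These were Il6ra (-1.44) and Lifr (-0.77) at 8 h and Lifr (-1.15) and Il27ra (-0.56) at 12 h, where Il11ra1 turned to 0.03. Il6ra, the chain that binds IL-6, fell by 2.23 on the log2 scale at 8 h and by 1.28 at 12 h, and with that scaling had -0.44 and no call at 12 h. Lifr fell by 1.28 and by 1.63.

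In the IL-10 family 3 of 9 genes passed the filter. Il19 had 1 read in the 4 M0 libraries and means of 2.18 CPM in wt and 2.59 CPM in Treml4-/- cells at M1-8 h. Il10rb, a chain shared by several IL-10 family receptors, was lower at 8 h by -1.08 and not called at 12 h. With median of ratios scaling it was not called at 8 h (-0.29) and higher at 12 h (0.75). Of the common gamma chain family, 5 of 15 passed the filter. Il15ra, which presents IL-15 on the cell surface, rose by 4.94 at 8 h and 5.36 at 12 h, alongside Il15. The common gamma chain Il2rg rose too (1.30 and 1.48). Il2ra had 1 read in the 4 M0 libraries and means of 4.22 CPM in wt and 3.66 CPM in Treml4-/- cells at M1-8 h. Il21r was lower at 8 h by -0.54 with a sign that turned to 0.23 with median of ratios scaling.

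Among the JAK kinases and STAT factors, all 11 listed genes passed the filter, 6 were called higher and 1 lower at 8 h, and 6 higher and 3 lower at 12 h, beside 17.1% and 59.8% of all genes at 8 h and 16.3% and 60.3% at 12 h. With median of ratios scaling 10 were higher and none lower at 8 h, and 8 higher and none lower at 12 h. Jak2 and Stat2 had log2 fold changes of 4.42 and 3.72 at 8 h, and Stat3, the factor used by IL-6 and IL-10, had 2.51. Stat6, the factor used by IL-4 and IL-13, was the gene called lower at 8 h (-1.28), and had -0.48 with median of ratios scaling and no call. At 12 h Stat5a (-1.30), Stat5b (-1.03) and Stat6 (-0.94) were called lower, and none of them with that scaling.

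Of the feedback inhibitors, 11 of 12 passed the filter, with 4 called higher and 4 lower at 8 h and 3 higher and 4 lower at 12 h (7 higher and 2 lower, and 5 and 2, with median of ratios scaling). Of all genes, 17.1% were higher and 59.8% lower at 8 h, and 16.3% and 60.3% at 12 h. Socs1 rose by 6.96 at 8 h and 6.59 at 12 h and Socs3, which acts on gp130 signalling, by 6.32 and 5.69, and Cish by 3.23 and 3.29. Pias3, an inhibitor of STAT3, fell by 2.21 and by 1.71, and Socs5 fell by 2.04 and by 1.70. All 5 listed STAT3 targets of IL-10 rose at both times under either scaling, beside 17.1% and 16.3% of all genes, with medians of 1.51 and 1.48, among them Nfil3 (2.80 and 2.45) and Bcl3 (1.51 and 1.48).

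The STAT6 targets of IL-4 and IL-13 went both ways. Of the 6 of 9 that passed the filter, 3 were called higher and 1 lower at 8 h, and 3 higher and 3 lower at 12 h (3 and 0, and 3 and 2, with median of ratios scaling), beside the same 17.1% and 59.8%, and 16.3% and 60.3%, of all genes. The 3 called higher, Arg1, Ccl24 and Pdcd1lg2, are those that passed the filter only through LPS libraries. Pdcd1lg2, which encodes the checkpoint ligand PD-L2, rose by 5.13 at 8 h and 4.27 at 12 h, and Arg1, the arginine-degrading enzyme arginase 1, by 2.39 and 5.84. The mannose receptor gene Mrc1 (-1.79) and the lectin gene Clec10a (-1.84) were lower at 12 h. In none of the 8 lists was a gene called between genotypes or in the interactions. Such calls were rare over all genes tested, with 0.0993% between genotypes before LPS, 0.0910% after 8 h and 0.132% after 12 h of it. The interactions had 0.00827% each. With shares this low, a count of none in lists this short cannot tell whether these pathways depend on Treml4.

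From 8 h to 12 h, 1 to 4 genes of each list were called, beside 13.5% of all genes called higher and 18.7% lower. These were 1 of 2 gp130 ligands, 1 of 4 gp130-family receptors and 2 of 3 genes of the IL-10 family. Of the common gamma chain family 1 of 5 was called, of the JAK and STAT genes 3 of 11, and of the feedback inhibitors 3 of 11. Of the STAT3 targets 1 of 5 was called and of the STAT6 targets 4 of 6. Il27 fell by 2.21 on the log2 scale, in the direction of Il6, and Socs3 fell by 0.63. Il6ra (0.94) and Il10rb (0.98) rose, and Stat5a fell by 1.51. Arg1 rose by 3.45 while Pdcd1lg2 fell by 0.86 and Mrc1 by 1.48.

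**Figure D4:**
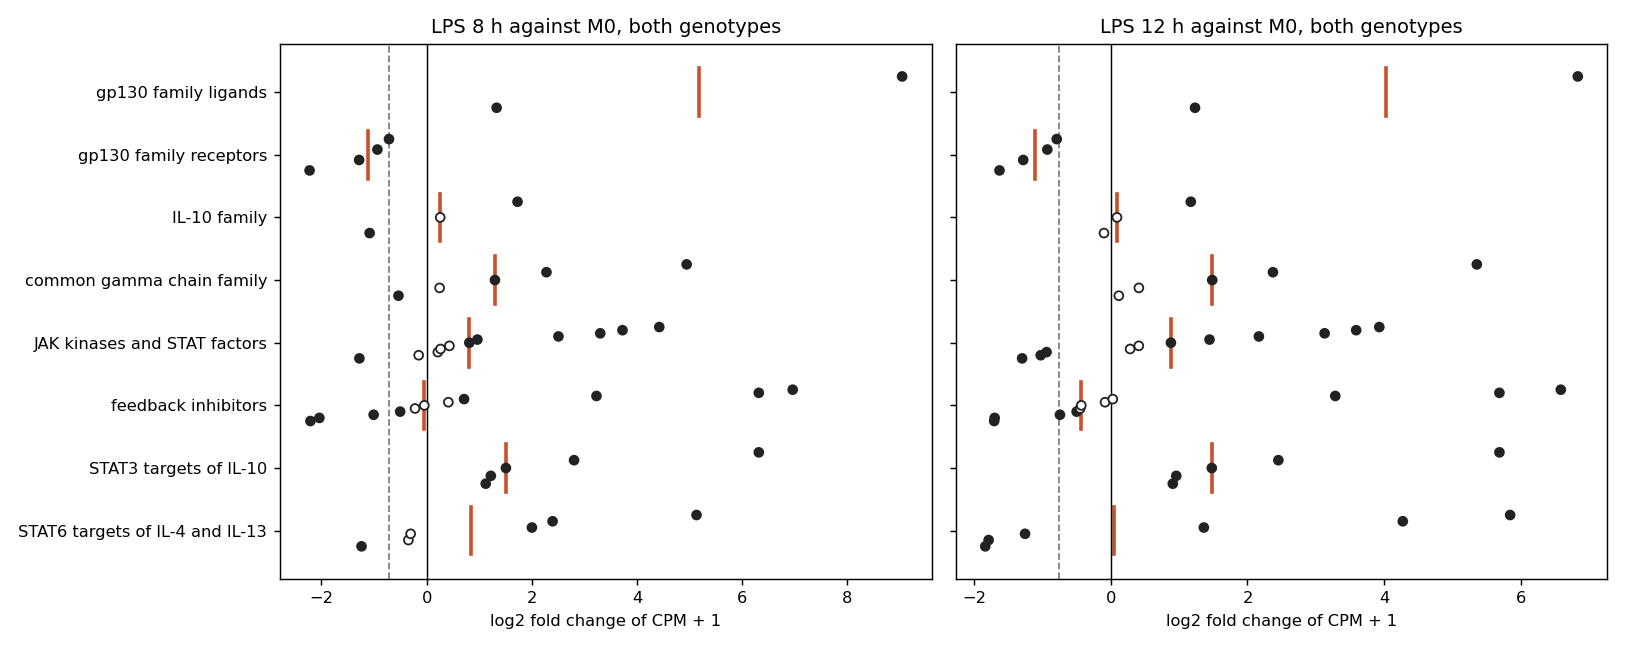
Log2 fold changes of CPM + 1 under LPS on the x axis, both genotypes averaged, for the tested genes of the 8 pathway lists in rows, filled where called and open where not, with a vertical bar at the median of each list. The dashed line is the median of all genes (-0.72 at 8 h, -0.76 at 12 h), and the 4 gp130-family receptors sit left of 0 while the 5 STAT3 targets sit right of it.

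The genes with the most similar profile over the 6 group means were found for each of the 10 by the smallest largest gap of centred log2(CPM + 1). For Il6 they were Tnc, which encodes the matrix protein tenascin C (gap 0.555 against a range of 7.57 for Il6), and Il12b, the shared subunit of the interleukin 12 family (0.575). For Il10 they were Mndal (0.199, range 5.35) and Ifi203 (0.220), members of a family of near-identical copies whose reads may be divided between them in counting. Il15 was closest to Aoah (0.155, range 3.82), which encodes an enzyme that inactivates LPS, and to Smpdl3b (0.158). Il4ra was closest to Zyx (0.153, range 4.01) and Kynu (0.166), Il13ra1 to Etnk1 (0.166) and Ptgs2os2 (0.173), and Il10ra to Ism2 (0.111) and Col27a1 (0.126). Il6st was closest to Ctns (0.073, range 2.24), which encodes a lysosomal cystine transporter, and to the lysosomal protease gene Prcp (0.086). Osm was closest to B2m (0.103) and Dusp28 (0.111), Il7r to Zfp451 (0.101) and Ift88 (0.112), and Lif, at its low level, to Ndel1 (0.036) and Mpc1-ps (0.050). These are likenesses over 6 means from the same 12 libraries and were given no test.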

How the data were processed

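RNA-seq reads of 12 BMDM libraries were aligned by the authors with STAR to mm10, per the labels, and counted with Subread, per the methods. The authors deposited log2 CPM, read counts normalised to library size on a log2 scale with a prior count of 0.25. Whole reads were recovered for 100% of values within 0.05 of a read. The design had assumed CPM, so the log2 values were turned back into CPM.

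The test was limma 3.58.1 (lmFit, contrasts.fit, eBayes with trend) under R 4.3.3, run on log2(CPM + 1) with 1 mean per group over 12086 genes with at least 1 CPM in 2 libraries. Benjamini-Hochberg adjustment ran over all of them. A gene was called at an adjusted p below 0.05 with at least a 1.4-fold difference. The script was tested on simulated data.

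The 10 genes, the pathway lists and the markers were chosen with earlier results of these data known. Named partner genes were called ones with up to the 3 largest changes per list, direction and LPS comparison, beside the 2 nearest profiles per gene. The value of 1 listed gene is not reported here. Exceptions, chosen after their values were seen, are Stat3 and the sex-linked genes. Adgre1 and Acod1 were read under their older symbols Emr1 and Irg1. Positions came from GENCODE M21 (GRCm38), promoters from RefSeq. Alternatives were 24 settings, of which the deposited log2 values and the omission of the 3 wt replicate 2 libraries were added after seeing the data. Figures and tables used Python 3.11.15, numpy 2.4.6, pandas 2.3.3 and matplotlib 3.10.9.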

Additional observations from a re-analysis of the deposited data

How the results depend on the processing

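LPS calls of the 9 tested genes were little affected by the 24 other settings, and scaling was the main exception. Lif did not pass the filter, so that only the setting without a filter gave values for it. Under median of ratios scaling the genes lower at 8 h went from 2 to 1, because Il7r (-0.25, adjusted p = 0.039) missed the fold threshold, and at 12 h Il7r turned from -0.12 to 0.73. The change of Il10 from 8 h to 12 h was lost without wt replicate 1 at M1-8 h (-0.35) and without wt replicate 2 at M1-12 h (-0.41). Osm was called for 8 h to 12 h with no minimum fold (0.37) and without wt replicate 1 at M1-8 h (0.50). Leaving out a library gave 0 to 2 genes called between genotypes at M1-8 h in place of 0, the 2 being Il7r and Il13ra1 without Treml4-/- replicate 1 at M1-8 h. Other member results, 1693 of those computed, kept their call. The causes were not tested. Il6 at M0 and Lif rest on few reads, and an effect of depth on the other genes was not tested.

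Over all genes the genotype counts were unstable. At M0 the 12 genes called became 7 to 16 under other settings and 7 to 219 without 1 library, the highest without wt replicate 1 at M0. At M1-8 h the 11 became 5 to 15 and 6 to 598, the highest without Treml4-/- replicate 1 at M1-8 h, and at M1-12 h the 16 became 7 to 20 and 6 to 79. The interactions went from 1 to 0 to 2 at 8 h (1 to 3 without 1 library) and to 0 to 1 at 12 h (1 to 33, the highest without wt replicate 1 at M0). From 8 h to 12 h, 3885 became 7291 with no minimum fold. With the replicate number as a replicate block 12, 12 and 15 genes were called between genotypes at the 3 times and none of the 9. Deviations of same-numbered libraries correlated at -0.27 to 0.46, which cannot settle whether they were paired, and the main fit took no pairing. With same-numbered libraries of each genotype as a block, 7 of the 9 genes were higher and 2 lower at 8 h against M0, as in the main fit.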
